A study of Mus musculus with 103 samples.

Results

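Muscle stem cells of middle-aged mice were set against those of young mice by bulk RNA sequencing. The comparison used 2 libraries from middle-aged mice, 1 of 12 months and 1 of 13 months, and 3 libraries from young mice, which are 5 of the 103 samples of the series. All groups are untreated C57BL/6 mice, with no transgene or deleted allele named and sex not given. The young mice are listed at 3 months in the age field and at 2 months in a description. Each exact age had 1 library in the middle-aged group, so exact age, animal and library cannot be told apart there. RNA came from 5000 to 10000 cells per library and was amplified before sequencing of 75-base reads. The labels name a growth medium containing FGF2 and leave unsaid whether cells were lysed before or after culture, and the series' design speaks of myoblasts. No sorting gate is named, and the cell type field says only muscle cell. The genes compared are those with an Ensembl identifier and a mean of at least 5 TPM (a length-corrected share of each library, in transcripts per 1000000) over the 5 libraries. This left 12289 of 43283 genes.

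Muscle stem cells, or satellite cells, lie on muscle fibres under the basement membrane and rest there until injury. The paired-box factor Pax7 marks them, Notch signalling helps to keep them quiescent, and the basic helix-loop-helix factor Myod1 appears when they are activated. Isolation itself is known to switch on immediate early genes in these cells, and interleukin 6 family cytokines acting through JAK kinases and Stat3 are a known signal in muscle repair.

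The libraries carried the RNA of muscle stem cells. Pax7 was found at 127.34 TPM or more in each of the 5 libraries, and 23 of the 24 genes of a muscle stem cell list passed the filter. Of 27 genes of mature fibres 8 passed, and Myog, which marks differentiation, was listed at 0 in 4 of the 5 libraries. Mitochondrially encoded RNA took 37.7, 38.6 and 39.9% of TPM in the young libraries, 32.7% in the 12-month library and 42.2% in the 13-month library. The middle-aged pair thus lay on both sides of the young range (exact two-sided permutation test p = 0.8 over 10 splits). A value of 0 in at least 1 of the 5 libraries occurred in 38.8% of tested genes and is not read as absence.

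No gene passed an adjusted p of 0.05 in limma, the test used throughout (smallest adjusted p = 0.237, for the pseudogene Llph-ps2). At an unadjusted p under 0.05, 511 genes (4.16%) were higher and 302 (2.46%) lower in the middle-aged libraries. Both middle-aged libraries lay above all 3 young ones for 1731 genes (14.1%) and below all of them for 991 genes (8.06%). These shares are the background against which every count below is read. The filter is a mean over all 5 libraries, so a gene low in 1 group can pass through the other group alone. Irf7 and Timp1, at 0 in all young libraries, passed in this way. So did other high list members whose young mean was under 5 TPM. Among them were Il6 (interleukin 6 list), Fosl1 (immediate early list), Thbs3 (CD47 list), and Cxcl10 and Nfkbib (NF-kappaB list). Shares and medians of tested list members can be tilted by this, and no correction was made. The median difference of all genes, middle-aged minus young on the log2(TPM + 1) scale, was 0.13. After quantile normalization it was -0.04, with 428 genes (3.48%) higher and 467 (3.8%) lower at an unadjusted p under 0.05, and 1355 (11%) above and 1466 (11.9%) below without overlap. The excess of higher over lower genes, 62.9% of those at an unadjusted p under 0.05, was 47.8% under that scaling, so an excess of higher genes is not shown. Differences below are on the log2(TPM + 1) scale, which understates the change of low genes. Among 5265 genes with a mean of 5 to 20 TPM, 28.9% had a ratio between the middle-aged libraries near shared values. These lay within 1% of 1 of 7 ratios tied to the commonest, 1.13. At 20 to 100 TPM the share was 10.4%. Whether low values rest on few fragments was not tested. Low values, such as some of Cxcl10, Emcn, Timp1, Ptprc and Ttc1, carry this limit. No single gene below passed the adjusted threshold, and "higher" and "lower" describe levels in these libraries. In bulk RNA, fewer cells of a type and less RNA per cell cannot be told apart.

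Among genes found in all 5 libraries with no overlap, Trib1 had the smallest unadjusted p. Trib1 is a tribbles pseudokinase that directs proteins such as the factor C/EBP alpha to degradation, and lies at chr15:59648350-59657099 on the plus strand (mm10). It stood at 45.48, 44.67 and 39.78 TPM in the young set, against 267.33 and 347.96 TPM in the middle-aged set. The middle-aged values lay far above a narrow young range, with a difference of 2.79 log2 units (SE 0.33, 95% interval 2.01 to 3.57, adjusted p = 0.339, 7.10-fold by means). In a fit that also used the 3 old libraries (24 months), in which Trib1 had 128.68, 95.02 and 96.65 TPM, its adjusted p for middle-aged against young was 0.035. Trib1 and Mapkapk3 were the 2 genes under 0.05 in that fit. In earlier results of these data the old libraries varied less among themselves than the middle-aged pair. A spread shared with them could therefore be too small, and the main fit called neither gene. Mapkapk3, a kinase activated by p38, was listed at 0 in all 3 young libraries but had 55.56 and 92.16 TPM in the middle-aged pair.

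The other genes chosen this way had varied known roles. Gadd45a, a growth arrest protein induced by DNA damage and other stress, had 133.95, 92.51 and 91.38 TPM in the young set, against 634.51 and 436.55 TPM in the middle-aged set (difference 2.33, SE 0.34, adjusted p = 0.339). Osmr encodes the receptor subunit for oncostatin M, an interleukin 6 family cytokine. Its levels were 19.25, 17.92 and 11.71 TPM in the young set, against 109.40 and 113.36 TPM in the middle-aged set (difference 2.73, SE 0.44, adjusted p = 0.339). The middle-aged values of Osmr were nearly equal and far above every young value. Emp1, a membrane protein related to Pmp22, had 40.24, 42.09 and 68.88 TPM against 328.69 and 231.82 TPM. Tnfaip6, a secreted hyaluronan-binding protein induced by inflammatory cytokines, had 12.16, 12.66 and 10.39 TPM against 55.91 and 115.83 TPM. The 13-month library carried the higher value of Tnfaip6 and the 12-month library that of Emp1.

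Others of this group of 10 were regulators and genes that share their locus. Bhlhe40, a transcriptional repressor tied to the circadian clock, had 137.83, 82.93 and 101.29 TPM in the young set, against 331.10 and 348.49 TPM in the middle-aged set. Zfand5, a ubiquitin-binding zinc finger protein, had 101.90, 133.70 and 138.34 TPM against 397.88 and 335.16 TPM. Sfi1 (centrosome) and Slirp (mitochondrial RNA stability) stood at 2.03 and 2.81 log2 units higher. Sfi1 overlaps Drg1, and Slirp overlaps Alkbh1 and Snw1, and the strand setting of the counting is not given. Reads of these pairs cannot be told apart.

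The 10 genes low in both middle-aged libraries were led by Gas1, a membrane-anchored growth arrest protein that also serves as a hedgehog co-receptor (chr13:60174405-60177365, minus strand). Gas1 had 170.44, 195.87 and 219.36 TPM in the young set, against 53.92 and 59.22 TPM in the middle-aged set (difference -1.76, SE 0.31, 95% interval -2.50 to -1.02, adjusted p = 0.404). Cflar encodes c-FLIP, an inhibitor of caspase 8, and had 194.89, 163.33 and 179.52 TPM against 66.05 and 41.05 TPM (difference -1.76, SE 0.35, adjusted p = 0.465). Col3a1, the chain of type III collagen, had 225.67, 257.45 and 285.39 TPM against 75.94 and 104.66 TPM (difference -1.51, SE 0.32, adjusted p = 0.540). For these 3 genes the young values lay close together and well above both middle-aged ones.

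Meg3 and Rian are long noncoding RNAs from the imprinted Dlk1-Dio3 region of chromosome 12, and both were lower in the middle-aged pair. Meg3 had 288.68, 289.34 and 231.87 TPM in the young set, against 93.99 and 130.46 TPM in the middle-aged set (difference -1.27). Rian had 285.76, 279.97 and 319.00 TPM against 124.75 and 144.63 TPM (difference -1.13). Mirg, another transcript of that region, went the other way, at 15.32, 5.62 and 14.03 TPM in the young set, against 24.40 and 20.92 TPM in the middle-aged set. The other genes of the low group were Amn1, H2afv (a histone H2A.Z form), Zfp868 (a zinc finger protein), Ttc1, Ripply3 (a corepressor) and C1qtnf3 (a secreted C1q-related protein). Their differences ran from -1.70 for C1qtnf3 to -2.82 for Amn1. The 20 named genes high or low without overlap had adjusted p values from 0.339 to 0.702.

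**Figure D1:**
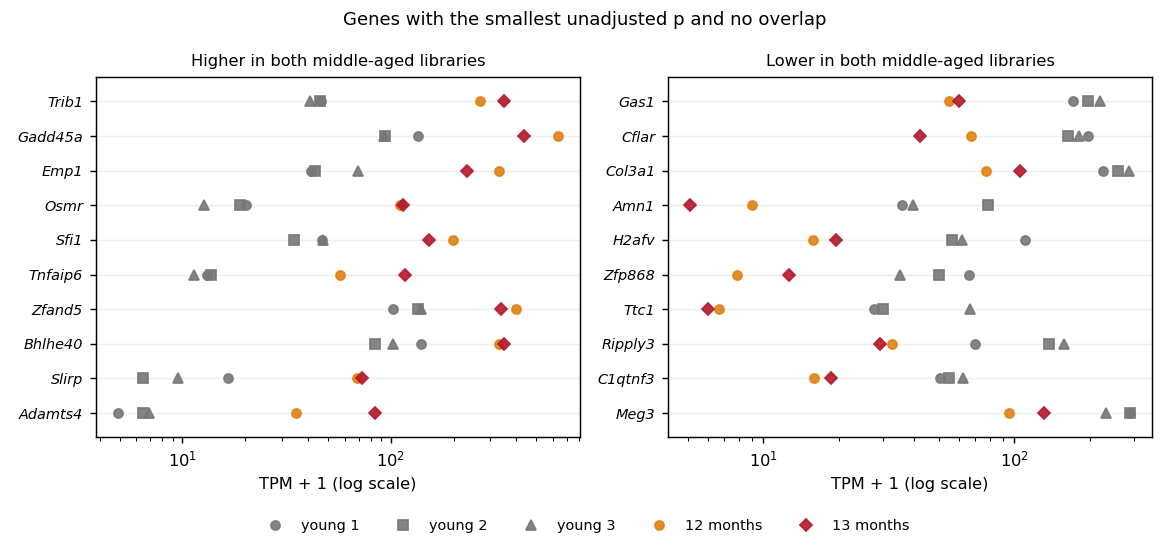
TPM + 1 (log axis) in each of the 5 libraries for the 10 genes high (left) and the 10 genes low (right) in both middle-aged libraries. Grey symbols are the 3 young libraries, the orange circle is the 12-month and the red diamond the 13-month library. The genes were chosen for no overlap, and Trib1 shows the tightest young group, at 39.78 to 45.48 TPM.

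Metallothioneins, small cysteine-rich proteins that bind zinc and copper, are switched on by the metal-sensing factor Mtf1 through metal response elements. Their promoter sequences are shown because both mouse genes of the list, Mt1 and Mt2, were high in both middle-aged libraries. The sequences are from RefSeq (GRCm38.p6, plus strand, 5′ to 3′), and capitals mark matches to the element's core TGCNCNC on either strand. The windows end before the first annotated base of each gene, at chr8:94172368-94172617 for Mt2 and chr8:94178839-94179081 for Mt1.
Mt2: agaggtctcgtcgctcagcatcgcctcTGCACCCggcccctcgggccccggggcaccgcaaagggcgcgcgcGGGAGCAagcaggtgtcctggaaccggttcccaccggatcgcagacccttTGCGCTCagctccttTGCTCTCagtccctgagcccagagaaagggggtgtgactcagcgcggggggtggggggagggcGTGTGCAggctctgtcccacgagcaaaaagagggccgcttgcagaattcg
Mt1: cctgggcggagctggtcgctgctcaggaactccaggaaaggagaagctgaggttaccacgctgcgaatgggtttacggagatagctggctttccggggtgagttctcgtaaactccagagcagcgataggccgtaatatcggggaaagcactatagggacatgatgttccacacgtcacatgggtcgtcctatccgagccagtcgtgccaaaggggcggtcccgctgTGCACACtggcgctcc
The Mt2 window held 5 matches and the Mt1 window 1, none overlapping. Of 32851 mouse promoter windows of 250 bases, 44.4% held at least 1 match and 0.344% at least 5. The Mt1 window was shorter, at 243 bases. Bases past the end of each window were not searched, so the counts do not give all elements of either gene. A match is a description of the letters and not of binding.

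Mt2 stood at 761.49, 2132.43 and 1611.01 TPM in the young set, against 4424.18 and 5858.22 TPM in the middle-aged set. The difference was 1.88 (SE 0.48, 95% interval 0.76 to 3.01, unadjusted p = 0.00551, adjusted p = 0.702). Mt1 had 273.94, 235.45 and 102.38 TPM against 352.20 and 751.45 TPM (difference 1.45, SE 0.53, adjusted p = 0.726). The young libraries spread widely for Mt2, and the ratio of the group means was 3.42. Mt1 and Mt2 are close paralogs, and how the counting split shared reads is not given. Of 24 tested genes for antioxidant enzymes and metallothioneins, 6 were high in both middle-aged libraries and 1 was low, with a list median of 0.15 against 0.13 for all genes. Txnrd1, which reduces thioredoxin, had 17.22, 12.03 and 29.50 TPM in the young set, against 57.36 and 74.37 TPM in the middle-aged set. Nfe2l2, the factor that drives many antioxidant genes, had 60.76, 59.28 and 43.91 TPM against 87.07 and 104.34 TPM. The peroxiredoxins, glutathione peroxidase Gpx3 and superoxide dismutase Sod1 did not separate the groups, and the list as a whole did not stand away from other genes.

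Interleukin 6 family signalling held many high members. Of 18 tested genes, 9 (50.0%) were high in both middle-aged libraries and 2 (11.1%) were low, against 14.1% and 8.06% of all genes, and the list median was 0.69. After quantile normalization 7 were high and 2 low. The ligand Il6 is shown with its promoter, where capitals mark a match to an NF-kappaB element (chr5:30012864-30013113, plus strand, RefSeq GRCm38.p6). The match lies within 50 bases of the gene's start, and 0.356% of the 32851 promoter windows held this element on either strand.
Il6: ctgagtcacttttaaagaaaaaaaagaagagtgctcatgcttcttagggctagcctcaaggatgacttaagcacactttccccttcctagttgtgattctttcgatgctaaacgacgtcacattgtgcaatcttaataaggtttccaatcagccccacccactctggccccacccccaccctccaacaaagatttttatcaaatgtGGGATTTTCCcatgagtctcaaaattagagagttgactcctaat
Il6 was listed at 6.45, 0 and 5.51 TPM in the young set, against 37.01 and 51.64 TPM in the middle-aged set. Of the other ligands, Clcf1 had 53.76, 40.96 and 42.51 TPM against 76.46 and 82.72 TPM, while Lif, Osm, Il11 and Ctf1 did not pass the filter.

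Receptor subunits and the kinases behind them followed in part. Il6st, which encodes the shared subunit gp130, had 81.69, 62.35 and 59.73 TPM in the young set, against 108.86 and 133.61 TPM in the middle-aged set (difference 0.83, unadjusted p = 0.0476). Osmr was described above. Lifr had 14.11, 12.36 and 15.13 TPM against 16.60 and 14.72 TPM, so its groups overlapped. Il11ra1 had 179.29, 575.56 and 321.91 TPM against 142.87 and 18.33 TPM, and overlaps Arid3c, Ccl27a and other genes. Jak1, which overlaps Raver2, had 44.65, 53.88 and 45.52 TPM in the young set, against 91.53 and 56.32 TPM in the middle-aged set, and Jak2 overlapped between the groups.

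Downstream of the receptors, Stat3 and its feedback target Socs3 were both high in the middle-aged pair. Stat3 had 53.98, 73.34 and 24.16 TPM in the young set, against 101.91 and 290.89 TPM in the middle-aged set (difference 1.89, unadjusted p = 0.0200). Socs3, which shuts off gp130 signalling, had 127.38, 86.05 and 71.55 TPM against 234.70 and 192.25 TPM (difference 1.19, SE 0.37, adjusted p = 0.702). Bcl3, an NF-kappaB cofactor and Stat3 target, had 7.30, 0 and 10.27 TPM against 12.81 and 51.81 TPM. Socs2, a feedback inhibitor of growth hormone signalling, was low, at 61.18, 39.98 and 23.17 TPM against 17.04 and 12.25 TPM. The old libraries, used here to test middle-aged against old, had 43 to 61.14 TPM of Osmr and 207.54 to 278.18 TPM of Socs3. For Osmr the middle-aged minus old difference was 1.06 (adjusted p = 0.702) and for Socs3 it was -0.14 (adjusted p = 0.964).

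Immediate early genes encode factors that are induced within minutes of a stimulus, without new protein synthesis. All 37 on the list were tested, and 17 of them (45.9%) were high in both middle-aged libraries and 2 (5.41%) low, with a median of 0.42. After quantile normalization the counts were 11 high and 4 low. The AP-1 subunits went different ways. Fosl1 was listed at 3.05, 0 and 0 TPM in the young set, against 18.67 and 53.88 TPM in the middle-aged set, and overlaps Ccdc85b. Fosl2 had 132.53, 109.12 and 66.99 TPM against 176.95 and 348.46 TPM. Junb was high by a narrow margin, at 128.91, 122.65 and 70.25 TPM against 141.75 and 129.66 TPM. Fos had 1263.14, 1112.60 and 1188.03 TPM against 1498.49 and 781.04 TPM, on both sides of the young range. Jun was low, at 924.95, 970.16 and 800.44 TPM in the young set, against 749.93 and 418.97 TPM in the middle-aged set.

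Egr2, a zinc finger factor also used in myelination, had 76.25, 105.60 and 115.21 TPM in the young set, against 206.69 and 299.32 TPM in the middle-aged set (difference 1.34, SE 0.35, adjusted p = 0.702). Atf3, a stress-induced repressor, had 115.88, 123.62 and 125.93 TPM against 264.46 and 209.07 TPM (difference 0.94, SE 0.30, adjusted p = 0.702). Csrnp1, a nuclear factor induced by axin, had 24.19, 10.85 and 9.86 TPM against 58.39 and 63.58 TPM. Myc, a growth-promoting factor, had 98.57, 158.78 and 127.24 TPM against 193.33 and 337.88 TPM. Egr1, the most abundant gene of the list, had 6026.66, 6150.77 and 5770.45 TPM against 5871.08 and 4747.66 TPM, and its groups overlapped. Dusp1, a phosphatase of MAP kinases, and Nr4a1, a nuclear receptor, also overlapped, with differences of 0.01 and 0.14. The matricellular genes Ctgf and Cyr61, targets of YAP, were both high, and Ctgf had 30.18, 21.90 and 19.13 TPM in the young set, against 43.25 and 179.86 TPM in the middle-aged set.

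**Figure D2:**
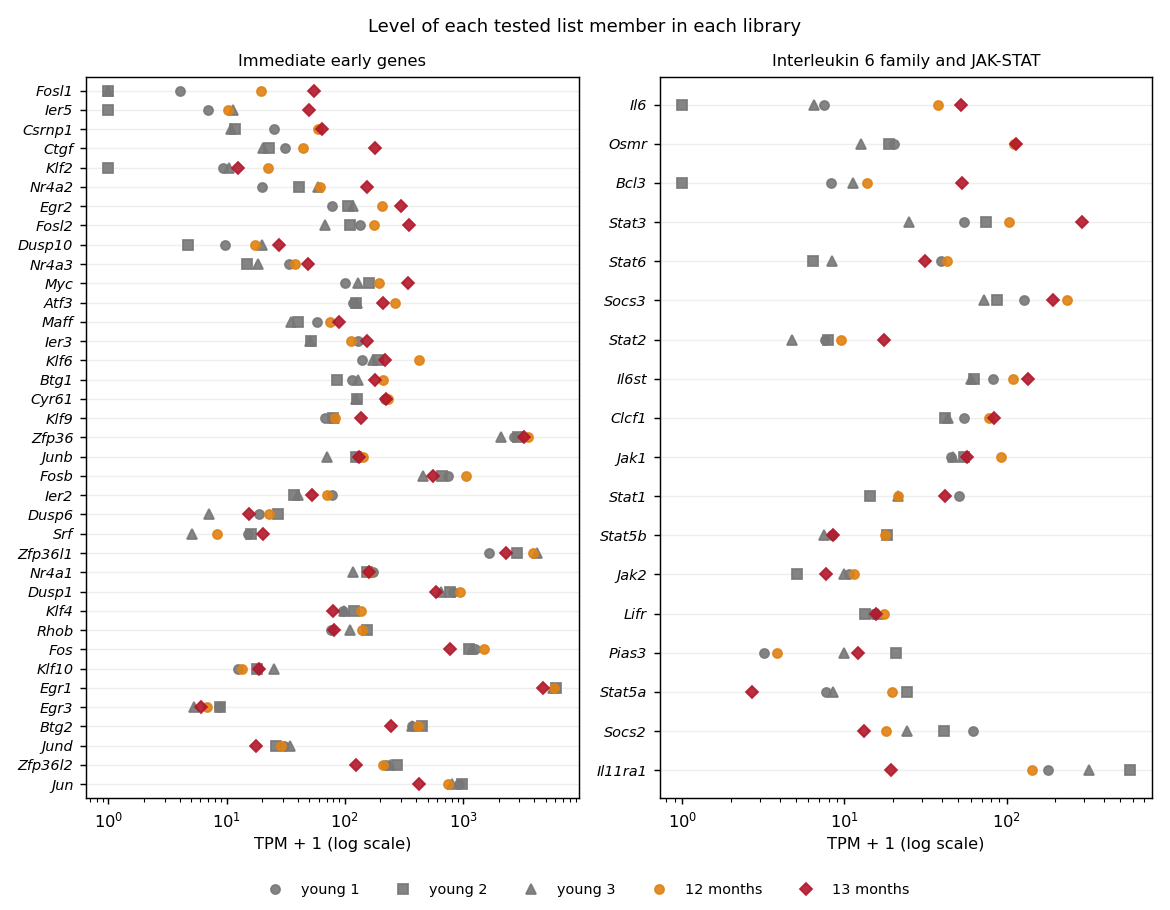
TPM + 1 (log axis) in each library for the 37 immediate early genes (left) and the 18 tested genes of the interleukin 6 family and JAK-STAT pathway (right), ordered by difference. Grey symbols are young libraries, orange the 12-month and red the 13-month library. Osmr and Socs3 separate the groups, whereas Egr1, Fos and Dusp1 overlap.

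Inflammatory genes of the NF-kappaB pathway held 6 high (33.3%) and 1 low gene (5.56%) among 18 tested, against 14.1% and 8.06% of all genes. The list median was 0.47, and after quantile normalization 4 were high and 1 low. Of the high genes, Cxcl10 and Nfkbib had young means of 3.20 and 4.49 TPM and passed the filter through the middle-aged libraries alone. Tnfaip3, the feedback inhibitor A20, had 39.20, 30.49 and 43.54 TPM in the young set, against 69.24 and 142.30 TPM in the middle-aged set. Cxcl10, an interferon-induced chemokine, had 2.27, 4.74 and 2.59 TPM against 14.74 and 27.67 TPM, and overlaps Art3. Nfkbia, the classical feedback inhibitor, did not follow, at 69.96, 55.44 and 45.52 TPM against 61.21 and 54.36 TPM, and Tnf was listed at 0 in all 5 libraries. Of 19 interferon genes 4 (21.1%) were high and 4 (21.1%) low, or 3 and 4 after quantile normalization. Irf7, the master regulator of type I interferon genes, was listed at 0 in all 3 young libraries but had 45.16 and 15.58 TPM in the middle-aged pair, and overlaps Phrf1. Ifngr1, a chain of the interferon gamma receptor, was low, at 28.85, 53.48 and 21.95 TPM against 0 and 13.11 TPM.

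Other growth arrest genes showed how far the 2 middle-aged libraries could differ. Gadd45g had 5.23, 10.81 and 5.94 TPM in the young set, against 47.88 and 21.28 TPM in the middle-aged set, and Gadd45b 8.58, 8.89 and 9.75 TPM against 19.66 and 29.12 TPM. All 3 Gadd45 genes were therefore high in both. Cdkn1a, the cell cycle inhibitor p21, had 48.40, 17.90 and 39.84 TPM in young libraries, 41.22 TPM at 12 months and 268.84 TPM at 13 months. The 12-month value lay within the young range, and the difference of 1.66 rested on the 13-month library (unadjusted p = 0.0841). Cdkn2a, which encodes p16, was listed at 0 in all 5 libraries. Of the 21 tested cell cycle inhibitors and p53 targets 4 were high and 1 low, with a median of -0.17, below that of all genes. Mki67, a marker of dividing cells, had 4.69, 7.89 and 4.29 TPM against 3.61 and 11.53 TPM. Of 14 proliferation genes 1 was high and 1 low.

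Genes of muscle stem cell identity were more often low than high. Of 23 tested, 7 (30.4%) were low in both middle-aged libraries and 2 (8.70%) high, with a median of -0.33 against 0.13 for all genes, and none reached an unadjusted p under 0.05. Pax7 had 308.37, 316.22 and 247.89 TPM in the young set, against 230.51 and 127.34 TPM in the middle-aged set (difference -0.75, SE 0.36, 95% interval -1.59 to 0.09, adjusted p = 0.774). Without the 13-month library the list median was -0.072 and without the 12-month library -0.81. The low count was 15 without the 12-month library, so the size of the shift rested on the 13-month library.

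The low members included surface proteins and regulators. Cxcr4, a chemokine receptor, had 51.53, 65.62 and 58.71 TPM in the young set, against 40.11 and 19.48 TPM in the middle-aged set. Peg3, an imprinted zinc finger factor, had 725.71, 786.22 and 861.40 TPM against 609.47 and 418.67 TPM. Dag1, which encodes the laminin receptor dystroglycan, had 567.96, 496.17 and 377.41 TPM against 314.74 and 300.96 TPM. Pax7, Chodl, Fgfr4 and Itga7 (which overlaps Mettl7b) were the other low members. The high members were Musk and Sdc4, a heparan sulfate proteoglycan that works with growth factor receptors. Sdc4 had 334.66, 251.66 and 228.15 TPM in the young set, against 366.55 and 561.60 TPM in the middle-aged set.

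Several classical markers did not separate the groups. Myf5 had 151.51, 321.30 and 261.90 TPM in the young set, against 299.88 and 169.69 TPM in the middle-aged set. Calcr, a calcitonin receptor linked to quiescence, had 144.24, 273.11 and 315.01 TPM against 293.92 and 96.18 TPM. Cd34, a surface sialomucin, had 90.99, 68.88 and 59.17 TPM against 105.39 and 40.68 TPM. Myod1 had 33.35, 17.38 and 6.33 TPM against 4.26 and 37.82 TPM. In each of these 4 genes the 12-month and the 13-month library lay far apart, and the sign of the difference depended on the library left out.

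Notch pathway genes were also more often low. Of 16 tested, 5 (31.2%) were low and 2 (12.5%) high, with a median of -0.24 and none at an unadjusted p under 0.05. Among receptors, Notch1 had 24.77, 13.32 and 22.13 TPM in the young set, against 6.38 and 6.81 TPM in the middle-aged set (difference -1.43, SE 0.62, adjusted p = 0.758). Notch3 had 70.80, 60.80 and 41.18 TPM against 40.91 and 24.99 TPM, whereas Notch2 had 43.91, 48.24 and 45.27 TPM against 51.27 and 42.39 TPM. The ligand Dll1 had 24.57, 16.72 and 18.50 TPM against 12.73 and 1.86 TPM. Of the target genes, Heyl, which is maintained by Notch in quiescent stem cells, had 229.18, 277.64 and 189.46 TPM against 155.34 and 124.44 TPM, while Hes1 and Hey1 overlapped. Rbpj, the DNA-binding factor of the pathway, and its partner Maml1 were the high members. Notch1, Notch3, Dll1 and Heyl were thus low, Notch2 overlapped, and both nuclear cofactors were high. Notch3 is also a marker of pericytes.

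**Figure D3:**
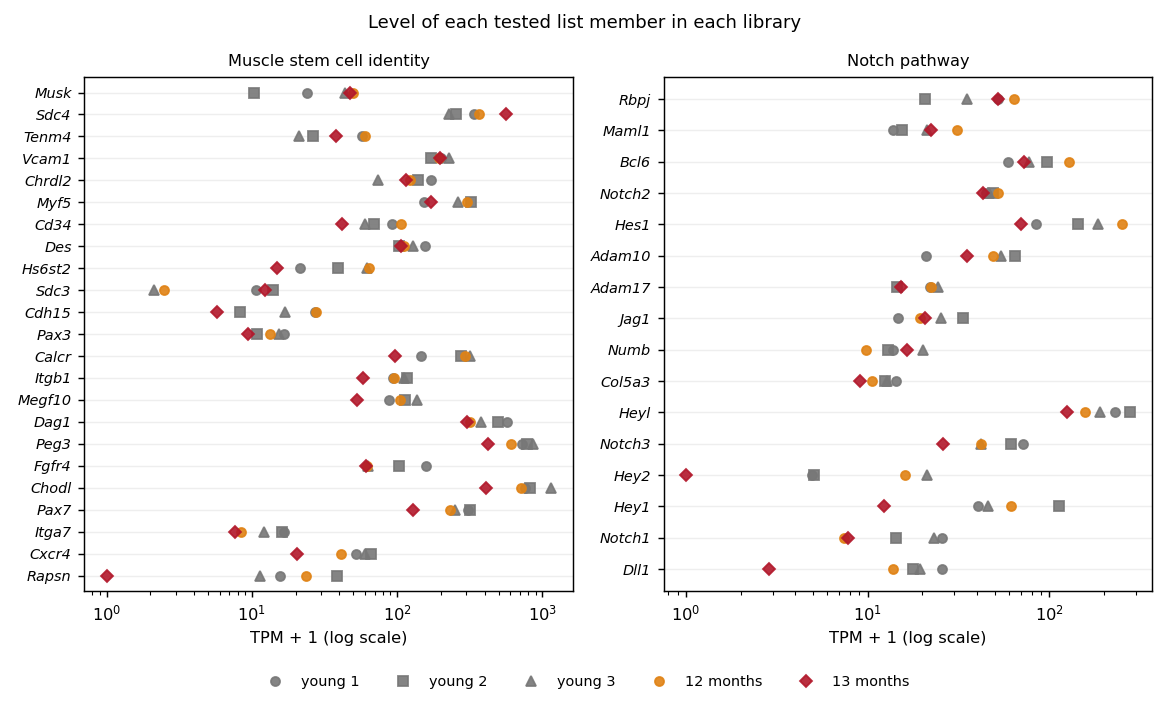
TPM + 1 (log axis) in each library for the 23 tested genes of muscle stem cell identity (left) and the 16 tested Notch pathway genes (right), ordered by difference. Grey symbols are young libraries, orange the 12-month and red the 13-month library. The 13-month library is the lowest of the 5 for Pax7, Cxcr4, Peg3 and Heyl, and the 12-month library falls within the young range for Myf5 and Calcr.

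Cd47, the gene that the series is about, encodes a surface protein that shields cells from phagocytosis and binds thrombospondins (chr16:49800533-49915010, plus strand). It averaged 75.6 ± 10.4 TPM in young (SD, n = 3) and 70.8 ± 5.2 TPM in middle-aged libraries (SD, n = 2). The difference was -0.09 (SE 0.34, 95% interval -0.90 to 0.73), with p = 0.6 in an exact two-sided permutation test whose smallest possible p is 0.1. The interval leaves room for a change in either direction. Middle-aged minus old was -0.85 (adjusted p = 0.702).

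Some ligands of CD47 were high in both middle-aged libraries. Of 13 tested genes of a list of CD47, thrombospondins and receptors, 4 (30.8%) were high in both middle-aged libraries and none low. The list median was 0.87. After quantile normalization 4 were high and 1 low. Thbs1, a secreted thrombospondin (chr2:118111876-118127133, plus strand), had 13.93, 12.04 and 12.17 TPM in the young set, against 32.79 and 51.44 TPM in the middle-aged set. Its difference was 1.62 (SE 0.51, 95% interval 0.41 to 2.83, unadjusted p = 0.0156, adjusted p = 0.702). Thbs4, which is also on the tenocyte marker list described further on, had 9.24, 6.45 and 8.79 TPM against 26.03 and 37.78 TPM (difference 1.84, SE 0.59, adjusted p = 0.702). Thbs3, listed at 0 in 2 young libraries, had 25.91 and 11.29 TPM in the middle-aged ones and overlaps Mtx1. Cd24a, the high member that is not a thrombospondin, had 0, 5.94 and 9.74 TPM against 21.83 and 23.26 TPM. Thbs2 overlapped between the groups. Sirpa, the phagocyte receptor for CD47, had 36.83, 18.44 and 7.66 TPM against 35.92 and 27.08 TPM.

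The prostaglandin E2 pathway, which acts on muscle stem cells through the receptor Ptger4, had 6 tested genes. All 6 differences were positive and 3 genes (50.0%, against 14.1% of all genes) were high without overlap, with a median of 0.92. Ptges3 had 51.58, 77.09 and 115.28 TPM in the young set, against 144.65 and 127.02 TPM in the middle-aged set. Slco2a1, the prostaglandin transporter, had 40.76, 41.14 and 14.84 TPM against 53.13 and 70.37 TPM. Ptger4 itself overlapped, at 7.68, 3.16 and 4.92 TPM against 12.08 and 4.11 TPM. Hpgd, the enzyme that breaks prostaglandin E2 down, lay below the filter of 5 TPM.

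Chaperones went both ways. Of 21 tested, 5 (23.8%) were high and 6 (28.6%) low, against 14.1% and 8.06% of all genes, with a median of 0.19. After quantile normalization 5 were high and 4 low. The cytosolic chaperones Hspa8 and Hsp90ab1 were low. Hspa8 had 1102.20, 1140.15 and 1080.44 TPM in the young set, against 769.86 and 704.25 TPM in the middle-aged set. Hsp90ab1 had 922.97, 796.76 and 901.15 TPM against 654.95 and 516.46 TPM. Hspa5, the chaperone BiP of the endoplasmic reticulum, was high, at 682.64, 557.84 and 611.39 TPM against 935.41 and 1283.41 TPM (difference 0.83, SE 0.29, adjusted p = 0.702). Bag3, a co-chaperone of selective autophagy in muscle, had 53.98, 24.19 and 44 TPM against 150.98 and 136.60 TPM. Hsph1 stood at 346.43 TPM at 12 months and 1117.47 TPM at 13 months, against 211.67 to 320.65 TPM in young libraries. Gabarapl1, which acts in autophagy, had 46.97, 24.46 and 40.13 TPM against 85.46 and 103.83 TPM.

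Genes of the extracellular matrix moved in both directions. Of 17 matrix proteases and inhibitors 7 (41.2%) were high and none low, with a median of 0.51, or 6 high and 1 low after quantile normalization. They included Adamts1, at 63.79, 91.17 and 93.64 TPM in the young set, against 142.79 and 192.65 TPM in the middle-aged set. Timp1, an inhibitor of matrix metalloproteinases, was listed at 0 in all young libraries but had 10.86 and 19.34 TPM in the middle-aged pair, and overlaps Syn1. Of 19 basement membrane genes 7 were high and 5 low, or 3 and 4 after quantile normalization. The laminin chain Lamb2 had 27.73, 20.22 and 19.08 TPM against 80.96 and 72.62 TPM (difference 1.75, SE 0.42, adjusted p = 0.697), while Lamc1 had 223.99, 152.79 and 175.67 TPM against 127.21 and 110.79 TPM. Col15a1 was low, at 38.41, 49.22 and 60.56 TPM against 18.11 and 24.11 TPM. Sparc, a matrix protein that binds collagen, had 658.01, 603.14 and 452.93 TPM against 356.43 and 391.53 TPM.

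Among fuel genes, Slc2a1, the glucose transporter GLUT1, was found at 29.33, 28.24 and 15.44 TPM in the young set, against 76.15 and 73.79 TPM in the middle-aged set (difference 1.64, SE 0.46, adjusted p = 0.702). Pdk4, which holds pyruvate back from oxidation, had 28.12, 23.57 and 24.09 TPM against 84.31 and 69.62 TPM. Pkm, which makes pyruvate, was low, at 63.99, 69.03 and 51.25 TPM against 28.52 and 33.75 TPM. Of 20 glycolysis genes 6 were high and 3 low. The nuclear-encoded respiratory chain had 4 high and 4 low of 32 (12.5% each), against 14.1% and 8.06% of all genes. Cytosolic ribosomal proteins had 3 and 3 of 34 (8.82% each), and splicing factors 1 and none of 25. The medians of these 3 lists were -0.17, -0.08 and -0.12. After quantile normalization their high and low counts were 4 and 4, 4 and 2, and 1 and 1, against 11% and 11.9% of all genes.

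The counts of the remaining lists follow, to be read against 14.1% high and 8.06% low of all genes. Fibroblast growth factor genes had 2 high and 3 low of 14, TGF-beta and BMP genes 3 and 4 of 22, Wnt genes 2 and 0 of 16, and insulin-like growth factor and FoxO genes 2 and 2 of 20. Etv1, an ETS factor downstream of growth factor receptors, had 8.88, 10.25 and 12.40 TPM against 48.95 and 40.10 TPM, while its relative Etv5 was low, at 29.38, 84.97 and 32.85 TPM against 16.94 and 17.63 TPM. Tgfb2, a TGF-beta ligand, had 21.64, 16.92 and 24.73 TPM against 36.70 and 102.44 TPM. MHC class I genes had 2 high of 15, fibrillar collagen genes 5 high and 3 low of 26, lysosome and autophagy genes 4 high of 25, and proteasome subunits 4 high and 6 low of 30. U1 snRNP and polyadenylation factors had 2 high and 4 low of 23, and myogenic regulators 2 high and 3 low of 15. Mitochondrially encoded genes had none high and 2 low of 15. Long noncoding RNAs had 1 high and 4 low of 11, a low share of 36.4% against 8.06% of all genes. Neutrophil and red blood cell markers had none high or low among 3 and 4 tested genes, and lymphocyte markers 1 high of 3.

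**Figure D4:**
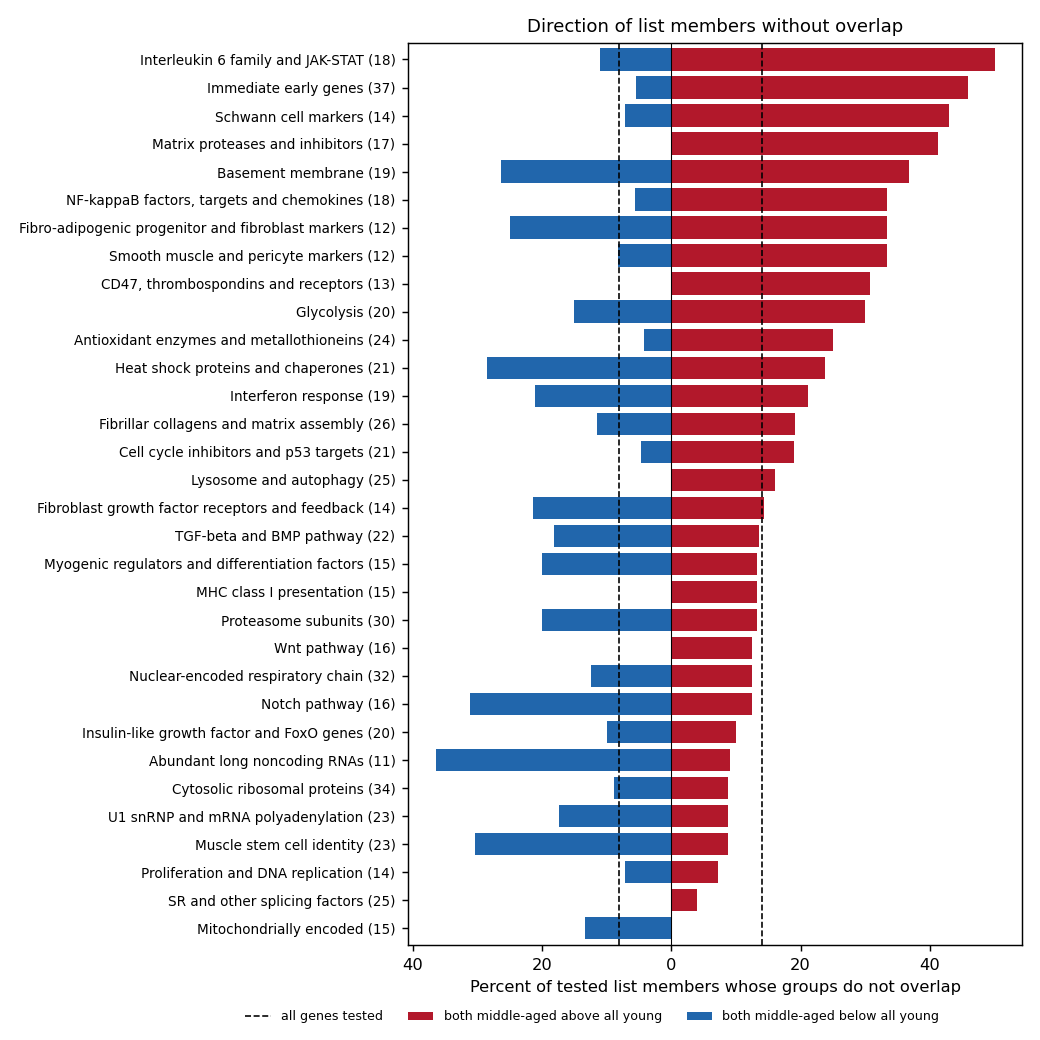
Percent of tested members of each list with 10 or more tested genes (number in brackets) that lie above all young libraries (red, right) or below them (blue, left) in both middle-aged libraries. Dashed lines give the shares of all genes tested, 14.1% high and 8.06% low. Interleukin 6 family and immediate early genes lie farthest right before quantile normalization, and long noncoding RNAs, Notch and muscle stem cell identity farthest left.

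Markers of other cell types were present, and some were higher in the middle-aged libraries. The 12 tenocyte markers summed to 27.5 to 44.6 TPM in the young set, against 144 and 171 TPM in the middle-aged set. Chad, a cartilage and tendon matrix protein that overlaps Acsf2, led them at 3.10, 0 and 0 TPM against 47.52 and 46.41 TPM. Tnmd, a defining tendon marker, was listed at 0 in both middle-aged libraries. The 15 macrophage markers summed to 38.1 to 49.4 TPM in the young set, against 179 and 97.8 TPM in the middle-aged set. Lyz2 had 21.45, 17.78 and 4.88 TPM against 78.65 and 58.24 TPM, while C1qa, C1qb and Tyrobp were listed at 0 in all 5 libraries. Ptprc, which marks all leukocytes, was lower, at 5.38, 10.89 and 25.62 TPM against 4.79 and 4.25 TPM.

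Schwann cell markers (18 genes) summed to 948 to 2086 TPM in the young set, against 1285 and 1835 TPM in the middle-aged set, within the young range, although 6 of 14 tested were high. Egr2, on this list as well as among the immediate early genes, was 1 of them. Smooth muscle and pericyte markers (14 genes) summed to 709 to 858 TPM in the young set, against 852 and 928 TPM in the middle-aged set. Myh11 had 14.39, 12.09 and 15.63 TPM against 53.18 and 71.71 TPM, and Acta2 had 113.33, 90.81 and 115.87 TPM against 213.75 and 264.90 TPM, while Rgs5 and Abcc9 were not high. Endothelial markers (16 genes) summed to 82.8 to 129 TPM in the young set, against 225 and 97.4 TPM in the middle-aged set, with Tie1, Cldn5 and Egfl7 at 0 in all 5. Of 9 tested, 3 were high and 1 low, with a median of 1.51, or 2 and 2 after quantile normalization. Ramp2, the low member, had the smallest unadjusted p of the list (0.0141 in limma) and overlaps Vps25. It had 56.92, 49.82 and 22.06 TPM in the young set, against 0 and 10.97 TPM in the middle-aged set. Among high members, Cdh5, the cadherin of endothelial junctions, had 4.88, 7.68 and 4.18 TPM against 16.89 and 18.31 TPM. Emcn, a surface sialomucin, had 2.78, 2.91 and 3.18 TPM against 13.65 and 9.48 TPM. Pecam1 overlapped, at 0, 0 and 6.30 TPM against 41.86 and 3.23 TPM. Fibroblast and fibro-adipogenic markers (19 genes) summed to 1286 to 1674 TPM in the young set, against 1659 and 1282 TPM in the middle-aged set. The part of these cells in the differences above was not tested.

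The 2 middle-aged libraries differed from each other more than any young pair on each measure given here, which was not tested. Their median absolute difference across genes was 0.89 log2 units, against 0.75 to 0.85 for the 3 young pairs. Of the tested genes 46.5% differed by over 1 unit between them, against 41.2 to 42.5% in young pairs. Across genes, which are not independent replicates, the middle-aged pair correlated at r = 0.478 and young pairs at 0.539 to 0.610. Pairs of a young and a middle-aged library correlated at 0.452 to 0.539, most of them above the middle-aged pair. The middle-aged libraries were thus not more alike than libraries of different groups on this measure. Among the largest differences were genes listed at 0 in 1 library of the pair. Snora31 (within Tpt1), SNORA17 (within Gsk3b) and Vaultrc5, small noncoding RNAs, had 1601.27, 1445.30 and 877.14 TPM at 12 months and 0 in the other 4. The predicted models Gm23215 and Gm24303, annotated as miRNAs, had 2628.77 and 1924.18 TPM at 13 months and 0 in the other 4.

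**Figure D5:**
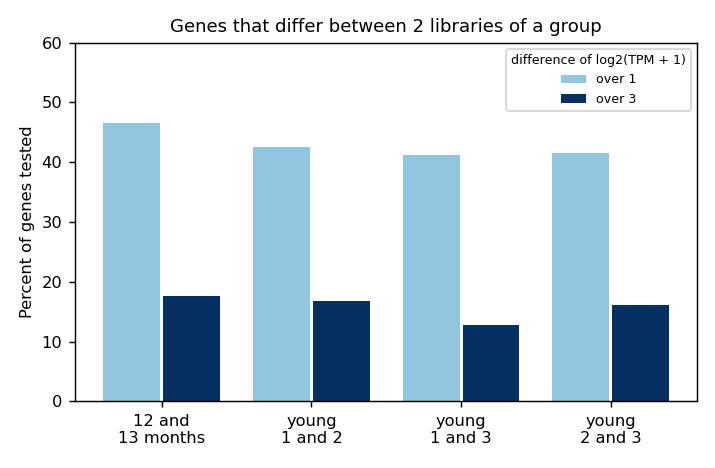
Percent of the 12289 tested genes whose log2(TPM + 1) differed by over 1 (light) or over 3 units (dark) between 2 libraries of the same group. The bars start at 0. The middle-aged pair has 46.5% over 1 unit and 17.6% over 3 units, and the young pairs have 41.2 to 42.5% and 12.8 to 16.8%.

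Genes seen in 1 group alone were few. 132 genes (1.07%) were listed at 0 in all 3 young libraries and above 0 in both middle-aged ones, and 101 (0.822%) the reverse. Of these, 65 and 33 were predicted models or pseudogenes. Besides Mapkapk3, Irf7 and Timp1, the first set held Spin2f, at 90.94 and 66.45 TPM in the middle-aged libraries. The reverse set held Mrln, which encodes the micropeptide myoregulin that restrains the calcium pump of muscle, at 42.18, 41.09 and 87.07 TPM in young libraries. It also held Magohb, a core part of the exon junction complex, at 35.30, 33.28 and 45.44 TPM, and Psmc1, a proteasome ATPase that every cell needs, at 13.92, 7.23 and 19.80 TPM. Since genes such as Psmc1 were listed at 0 too, these values are not read as absence. Spin2f, Mrln and Magohb were chosen after their values were seen.

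The most abundant nuclear-encoded genes were largely shared. Gm37376, a model of unknown class, led both groups with 61374.49 to 64814.17 TPM in the young set, against 38418.37 and 46925.24 TPM in the middle-aged set. Ifrd1, a regulator of muscle stem cell differentiation, was the most abundant named coding gene, at 5374.12, 10196.07 and 14119.80 TPM in the young set, against 24327.88 and 22165.40 TPM in the middle-aged set (difference 1.34). Malat1, a nuclear noncoding RNA, was low, at 7968.39, 9141.69 and 11240.46 TPM against 6768.97 and 6176.54 TPM. In the groups' lists of 8, Egr1 was the only immediate early gene. No gene passed the adjusted threshold for middle-aged against old in the 8-library limma fit (smallest adjusted p = 0.110), where 848 genes (6.90%) had an unadjusted p under 0.05.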

How the data were processed

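The authors deposited TPM per gene for 8 bulk libraries, of which the 3 young and 2 middle-aged ones were compared and the 3 old ones (24 months) used in 1 further fit. The submitters' processing notes name STAR and mm10, while the sources used here give no version, annotation, strand setting or quantifier. The authors' TPM sum to 1000000 per library and keep no depth. Per the labels, 30 to 40 (in units of 1000000) reads of 75 bases were obtained per sample, but the mapped depth of each library is unknown, so no counting interval was computed. How many fragments a low value rests on is therefore unknown too. Of 45798 entries, 43283 had an Ensembl identifier. Gene positions came from GENCODE vM21, promoters from RefSeq.

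The main test was limma 3.58.1 (R 4.3.3) on log2(TPM + 1), with an intensity trend, two-sided, on 12289 genes with a mean of 5 TPM or more, with Benjamini-Hochberg adjustment and calls at 0.05. Limma alone was run across genes. Tested on simulated data of this design and gene number, it called 2.67% of genes changed by 2 log2 units and 24.7% of those changed by 4. P values measure the spread between libraries of a group. Cd47, Trib1, Osmr, Pax7 and the mitochondrial share had an exact two-sided permutation test, in which Trib1, Osmr and Pax7 reached p = 0.1, the smallest it allows. Trib1 and Osmr had been chosen for lack of overlap, so their p followed largely from that choice and is no further evidence. Members and the 41 gene lists were chosen with earlier results of these data known, and lists are described by counts and medians with no test. Named genes are 12 preset ones, 10 per direction by smallest p among genes without overlap and above 0 in every library (no predicted models or pseudogenes), up to 4 per list by smallest p, defining list members, the 6 with the largest difference between middle-aged libraries each way, and the 8 most abundant per group. List members beyond these were named after their values were seen. Python 3.11.15, numpy 2.4.6, pandas 2.3.3 and matplotlib 3.10.9 were used. Alternatives covered pseudocounts, filters, scaling, sample sets and each library left out. A few named genes are not reported here.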

Additional observations from a re-analysis of the deposited data

Results flagged for a closer look

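Psmc1, an ATPase of the proteasome base, went opposite ways in middle-aged and old libraries relative to the young ones. It was listed at 13.92, 7.23 and 19.80 TPM in young, at 0 in both middle-aged, and at 23.11, 27.19 and 23.31 TPM in old libraries. The middle-aged minus old difference was -4.67 log2 units, with an adjusted p of 0.203 in limma over 8 libraries.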

How the results depend on the processing

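With 2 libraries on one side, each count depended on single libraries, and the cause was not tested. Genes past an adjusted p of 0.05 ran from 0 to 409 when each library was left out: 296 without the 12-month and 409 without the 13-month library, where the lone middle-aged sample is assumed to vary like the others, and 2 in the fit of all 8 libraries. Over those omissions, genes at an unadjusted p under 0.05 ran from 490 to 760 higher and 282 to 781 lower, and genes without overlap from 2327 to 4550 higher and 1559 to 3025 lower. Immediate early genes had a median of 0.40 to 0.58, with 17 to 21 high and 2 to 8 low. Interleukin 6 family genes had 0.64 to 0.84, with 9 to 12 high and 2 to 3 low. Stem cell identity had -0.81 to -0.072, with 2 to 6 high and 7 to 15 low.

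With a mean of 1 TPM or more, 919 genes were higher at an unadjusted p under 0.05 and 2887 without overlap, and with no filter 956 and 2960. With a mean of 20 TPM or more, fewer genes are tested and the counts were 170 higher and 135 lower, and 579 and 477 without overlap. Restricted to genes above 0 in all 5 libraries, 199 were lower at an unadjusted p under 0.05, 1045 were higher without overlap, and the interleukin 6 median was 0.41. Quantile normalization gave 467 lower genes at an unadjusted p under 0.05, 11 high and 4 low immediate early genes, 0 high stem cell identity genes, and -0.38 for Mki67.

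Replicate numbers are shared between groups, but same-numbered libraries did not deviate together (r = 0 and 0.014), so they were not taken as pairs. With a replicate block, 335 genes were higher and 195 lower at an unadjusted p under 0.05, and the differences were 0.011 for Cd47, 0.032 for Myf5 and -0.24 for Lcn2.

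Of 2726 alternative values for 177 named genes, 24 in 14 genes changed sign and 8 passed the adjusted threshold. Those were Trib1 in the 8-library fit, Trib1, Irf7 and Timp1 without either middle-aged library, and Cflar without the 12-month library. None of the 14 had been called. With each library left out, the difference ran from -0.187 to 0.011 for Cd47, -0.48 to 0.96 for Mki67, -0.46 to 0.36 for Myf5, -1.39 to 2.30 for Lcn2, -1.66 to 1.22 for Myod1, -0.81 to 0.55 for Cd34, -0.051 to 0.80 for Xist, -0.23 to 1.13 for Ptger4, -4.00 to 0.15 for H19, -1.12 to 4.01 for Laptm5, -1.08 to 3.75 for Hba-a1, -1.26 to 0.34 for Calcr, -1.23 to 2.60 for Cd2 and -4.91 to 0.39 for Hbb-bs.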
